A study of Drosophila melanogaster with 6 samples.

Results

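The 33 neuropeptide genes described here were taken by gene symbol from a list of fly neuropeptide precursors and make up 33 of the 16493 genes counted. They were chosen by name and not by a threshold on a measured value, although earlier results of these data were known. For each gene, the cells that carried it strongly, its level in the remaining cells, its overlap with other peptides in single cells and its level in flies with and without *Appl* were described.

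Neuropeptides are short signaling molecules that neurons cut from longer precursor proteins, store in dense core vesicles and release to act mostly on G protein-coupled receptors. In the fly brain they convey time of day, hunger, arousal and stress, and a gene is often transcribed at a very high rate in a small number of cells while most neurons do not use it. In droplet sequencing, precursor RNA released from a broken cell also enters droplets that hold other cells, and this free RNA gives a low count in cells that do not transcribe the gene.

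The data came from brains of 10-day-old *Drosophila*, with single-cell 3′ libraries from 3 control samples (genotype w1118) and 3 samples with *Appl* deleted (genotype Appl[d] w[*], called *Appl*- below). *Appl* encodes the fly member of the amyloid precursor protein family, and the samples were made to ask which transcripts its loss changes in which brain cells. Each library pooled the brains of 20 male and 20 female flies, so the library is the replicate (n = 3 per genotype). The sources used here do not say whether both genotypes share a strain background or whether libraries of a genotype came from separate cultures, so the loss of *Appl* and a difference in background cannot be told apart, and p-values measure the spread between these libraries.

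The libraries held between 11282730 and 56384733 unique molecular identifiers (UMIs, one per captured RNA molecule). Of 67362 barcodes, 25189 passed the limits of at least 200 genes and at most 10% mitochondrial UMIs, with 3154 to 6461 cells and a median of 2298 to 3178 UMIs per cell in each library. The mitochondrial limit removed 84.7% of the barcodes of control 1 and between 31.9% and 63.9% of those of the other libraries. The deleted gene matched the labels, with *Appl* at 2058 to 2316 CPM (UMIs scaled to a common library total) in the controls and 205 to 255 CPM in *Appl*- (log2 fold change -3.22, SE 0.12, edgeR adjusted p = 1.89e-05). The cells fell into 38 clusters that were built without the neuropeptide genes. By markers, 35 clusters (24472 cells) were neuron-like, and 3 clusters (717 cells) carried raised markers of glia, of hemocytes and fat body, or of photoreceptors and were treated as not neuron-like, although neuronal markers were detected in many of their cells too.

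The neuropeptide genes together had 228005 UMIs in the kept cells, but their levels ranged from 57513 UMIs for *sNPF* to 3 UMIs for *CCAP*. *sNPF*, which encodes the short neuropeptide F precursor, a modulator of feeding made by many mushroom body neurons, had 609, 876 and 700.5 CPM in control 1, 2 and 3 and 612, 652 and 672 CPM in *Appl*- 1, 2 and 3. The next most abundant were *Dh31*, a calcitonin-like diuretic hormone, with 21489 UMIs, *NPF*, the fly relative of neuropeptide Y, with 20794 UMIs, and *Pdf*, the signal of ventral lateral clock neurons, with 18844 UMIs. They were followed by *Tk*, the tachykinin precursor (18278 UMIs), *Nplp1*, a neuropeptide-like precursor (17473 UMIs), *spab* (15481 UMIs) and *AstA*, the allatostatin A precursor (13530 UMIs). At the other end, *Lk* (leucokinin), *Trissin*, *CNMa*, *Hug* (hugin), *Ilp3*, *Dsk* (drosulfakinin), *Ilp5*, *RYa* (RYamide) and *CCAP* (crustacean cardioactive peptide) had between 3 and 189 UMIs each in all 25189 cells.

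**Figure D1:**
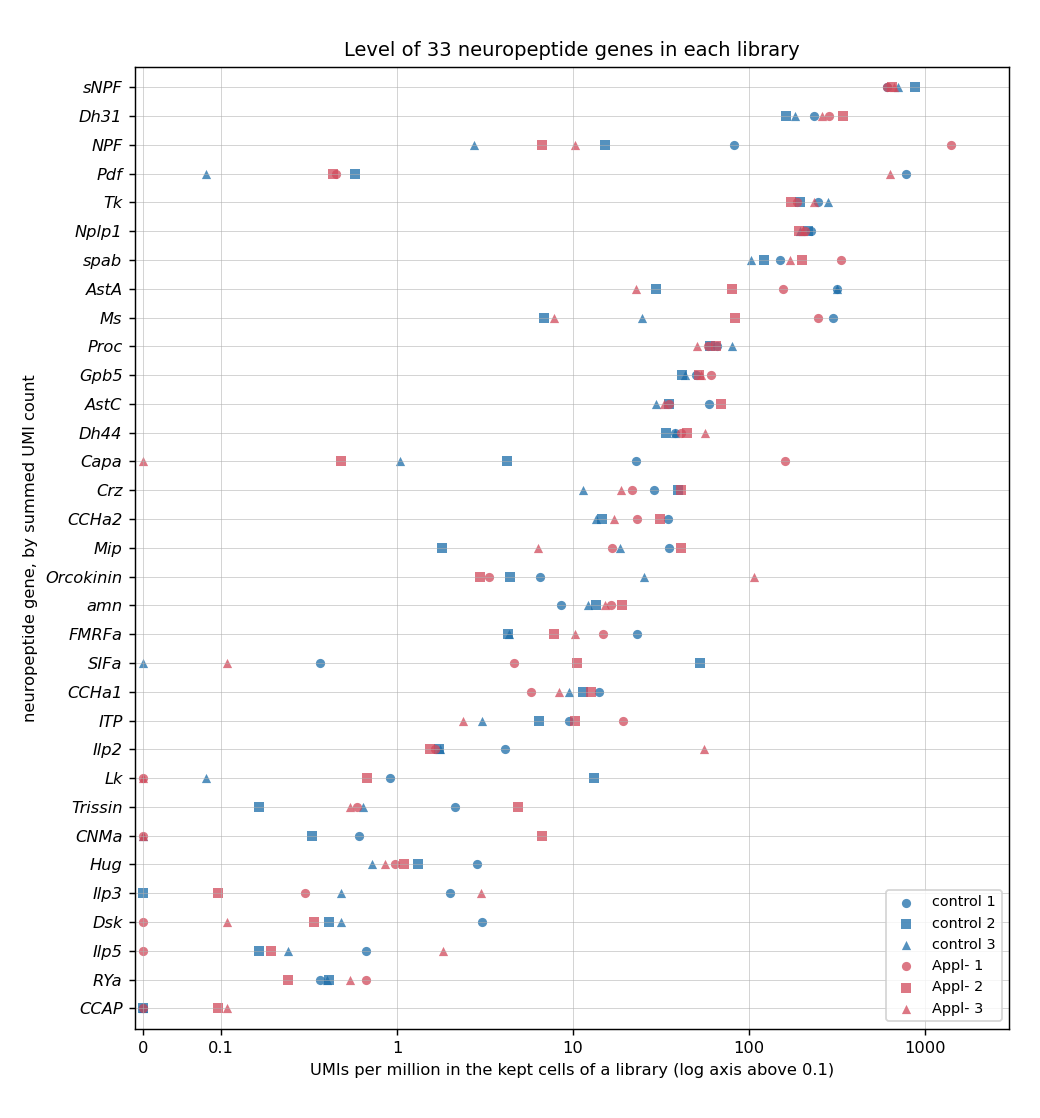
Level of each of the 33 neuropeptide genes in the 3 control and 3 *Appl*- libraries, as CPM in the kept cells (log axis above 0.1, zeros at the left edge), ordered by summed count. *sNPF*, *Tk* and *Nplp1* had similar levels in all 6 libraries, while *NPF* and *Pdf* were far apart between libraries of the same genotype.

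Genes with a similar total could be carried by very different numbers of cells. A cell with at least 10 UMIs of a gene was called high for it. *Nplp1* had 302 high cells, and 729 cells were needed to reach 50% of its UMIs, whereas 1 cell held 50% of the UMIs of *NPF* and 2 cells held 50% of those of *Pdf*. In 13 of the 33 genes, 1 or 2 cells held 50% of all UMIs, and in 21 genes the high cells held more than 50% of the UMIs. There were 29 genes with at least 1 high cell and 12 genes with at least 30. *Hug*, *CCAP*, *amn* (amnesiac, known for its part in memory) and *RYa* had 0 high cells of 25189, which allows a share of up to 0.0119% (counting error only).

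**Figure D2:**
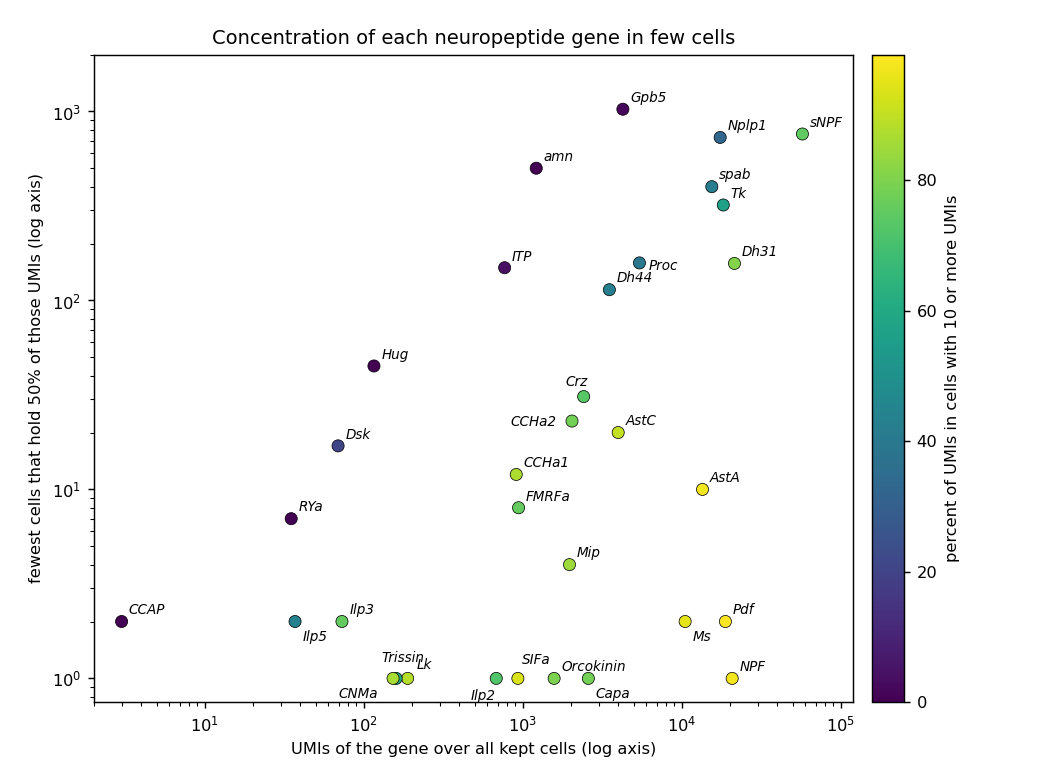
Summed UMIs of each neuropeptide gene (horizontal, log axis) against the fewest cells that hold 50% of them (vertical, log axis), with the percent of UMIs in high cells in color. *NPF*, *Pdf* and *Ms* combined over 10000 UMIs with 1 or 2 cells, while *Gpb5* and *amn* were spread over 1028 and 501 cells.

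The most extreme cell was in *Appl*- 1, where *NPF* made up 18567 of the 38715 UMIs of 1 cell, 48.0% (exact 95% binomial interval 47.5 to 48.5%, counting error only). This cell held 97.8% of the *NPF* UMIs of its library and 89.3% of those of all libraries. *NPF* had 82.2, 15.1 and 2.72 CPM in control 1, 2 and 3, and 1413, 6.70 and 10.2 CPM in *Appl*- 1, 2 and 3, so the library with that cell stood apart from both genotypes. A further 1161 *NPF* UMIs came from 1 cell of control 1, 85.8% of the *NPF* of that library.

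*Pdf* was high in 7 cells, 6 in control 1 and 1 in *Appl*- 3, which held 99.2% of its UMIs, with a median of 2452 UMIs each. Its level was 785, 0.576 and 0.0801 CPM in the controls and 0.446, 0.431 and 634 CPM in *Appl*-, which followed the libraries that held those cells and not the genotype. *Ms*, which encodes myosuppressin, an inhibitor of visceral muscle, reached 3474 UMIs in 1 cell of control 1 and 2881 UMIs in 1 cell of *Appl*- 1. The latter cell also had 1896 UMIs of *Capa*, whose peptides act on the renal tubules, or 88.6% of the *Capa* of its library. *Orcokinin* had 962 UMIs in 1 cell of *Appl*- 3, and *SIFa*, made by a few neurons of the pars intercerebralis, had 607 UMIs in 1 cell of control 2.

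*Ilp2*, an insulin-like peptide of the brain's insulin-producing cells, was high in 1 cell of *Appl*- 3 with 491 of 1930 UMIs. The same cell was also high for *Ilp3* and *Ilp5*, which encode the other insulin-like peptides of these neurons. Outside that library *Ilp2* was between 1.53 and 4.13 CPM.

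Genes carried by many cells differed in where those cells lay. *sNPF* was high in 1794 cells, and 681 of them were in cluster 7 and 224 in cluster 11, both Kenyon cell-like by markers of mushroom body neurons. In these clusters, 61.6% and 39.9% of cells were high for *sNPF*. The monoaminergic-like cluster 24 came to 3850 CPM *sNPF* and 43.4% high cells, against 142 CPM in cells that were not neuron-like. *Tk* was high in 440 cells over 24 clusters, with 2380 CPM in cluster 23 and 2170 CPM in cluster 26. *Dh31* was high in 569 cells over 20 clusters, and in the small cluster 36, led by the transcription factor *Poxn*, 56 of 63 cells (88.9%) were high at a mean of 5602 CPM.

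*Crz*, the precursor of the stress- and metabolism-related peptide corazonin, had all 69 of its high cells in 1 cluster of 213 cells, cluster 30. High cells of *AstA* were most frequent in cluster 6 (25 of 66 cells), led by the homeobox genes *Lim3* and *Hmx*, and high cells of *Proc*, the proctolin precursor, in cluster 3 (51.4% of 70 cells). *AstC* (allatostatin C), *Dh44* (a diuretic hormone related to corticotropin-releasing factor), *FMRFa* and *spab* all had most or the largest share of their high cells in cluster 2, a neuron-like cluster of 2603 cells with a median of 4595 UMIs. The stress genes *Hsp67Ba*, *Hsp67Bc*, *Hsp23* and *Hsp27* were among the leading genes of cluster 2.

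Not all abundant peptides came from high cells. *Gpb5*, a beta subunit of a glycoprotein hormone, had 4269 UMIs with only 4 high cells, which held 1.76% of its UMIs, and 12.6% of all cells had at least 1 UMI of it. *amn* had 1217 UMIs and no cell with more than 3. Both were lower in cells that were not neuron-like, at 17.9 CPM against 50.6 CPM in neuron-like cells for *Gpb5*, and at 7.66 CPM against 14.6 CPM for *amn*. The median depth of the cells compared was 2672 UMIs for neuron-like cells and 2565 UMIs for the others.

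To see what was left outside the high cells, the level of each gene in neuron-like cells with fewer than 10 of its UMIs was set beside its level in the cells that were not neuron-like. Of the 33 genes, 20 were higher in the neuron-like cells and 13 were not. *Crz* was higher by 10.8 times (7.87 against 0.730 CPM), *FMRFa* by 7.57 times (2.76 against 0.365 CPM) and *CCHa1* by 3.95 times (1.44 against 0.365 CPM), where 0.730 CPM is 2 UMIs and 0.365 CPM is 1 UMI. *Gpb5* was higher by 2.83 times, *Nplp1* by 2.14 times and *Tk* by 2.09 times. *Dh31* was at nearly the same level in both, 51.5 and 54.4 CPM, and *Pdf*, *AstA*, *AstC*, *NPF*, *Ms*, *Capa* and *CCHa2* were lower in the neuron-like cells. The limit was set on the neuron-like cells alone. With the same limit on both sides, a comparison chosen after seeing the data, 24 of 33 genes were higher in the neuron-like cells, and *Dh31* (23.5 CPM in the cells that were not neuron-like), *AstC* (2.56 CPM), *AstA* (1.46 CPM) and *Ms* (5.86 CPM) were then among them.

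In several of these genes the level outside the high cells was highest in the libraries that held the strong cells. *NPF* in cells with fewer than 10 of its UMIs was 27.2 CPM in *Appl*- 1, which held the cell with 18567 *NPF* UMIs, and between 0.987 and 4.08 CPM in the other 5 libraries. *Pdf* in such cells was 6.10 CPM in control 1 and 2.47 CPM in *Appl*- 3, the 2 libraries with high cells, and at most 0.576 CPM in the others. *Ms* was 22.6 CPM in *Appl*- 1 and 8.11 CPM in control 1, where its strongest cells were, and between 0.430 and 2.49 CPM in the rest. How far free RNA accounts for these low counts was not tested.

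*ITP*, the ion transport peptide, an antidiuretic hormone, was lower in the kept neuron-like cells than in the kept cells that were not neuron-like. It had 78.8 CPM in cells that were not neuron-like and 6.50 CPM in neuron-like cells. In the cluster with glial markers, *ITP* was 123.1, 123.2 and 92.3 CPM in control 1, 2 and 3 and 54.2, 104 and 23.2 CPM in *Appl*- 1, 2 and 3, against 1.64 to 18.9 CPM in the neuron-like cells of the same libraries. It was higher in the cluster with glial markers in 6 of 6 libraries. Between 5.88% and 26.7% of that cluster's cells had an *ITP* UMI, against 0.454% to 5.62% of neuron-like cells. Only 2 kept cells were high for *ITP*, so this was a low level over many cells. Among the barcodes left out by the filters, 8 were high for *ITP*, at up to 743 UMIs, and these were not assigned to a cell type. The highest neuron-like value, 18.9 CPM, was in *Appl*- 1.

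**Figure D3:**
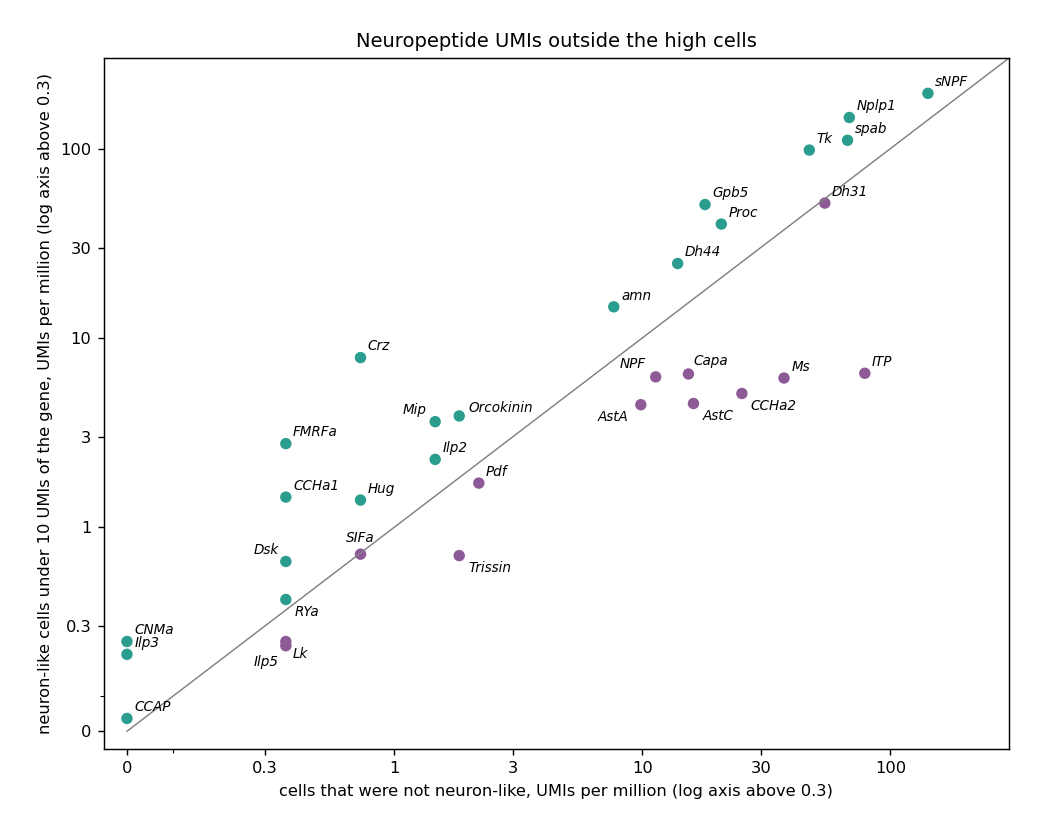
Level of each neuropeptide gene in cells that were not neuron-like (horizontal) against neuron-like cells with fewer than 10 UMIs of that gene (vertical), both in CPM with log axes above 0.3 a line of equality, and green points for genes higher in the neuron-like cells and purple points for the others. *Crz* and *FMRFa* lay far above the line and *ITP*, at 78.8 against 6.50, far below it.

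The cells high for a peptide also differed in their other genes, given here as the ratio of the mean level in high cells to that in the other neuron-like cells, as a description without a test. High cells were also deeper, with medians of 3546 to 9995 UMIs per cell against 2566 to 2670 UMIs in the other neuron-like cells. *Crz* high cells carried *Eaat1*, a glutamate transporter best known from glia, at 117 times the level of other neuron-like cells, with a UMI in 100% of the cells against 6.51%. *GILT1*, related to a lysosomal thiol reductase, was 93.4 times and *CG14274* 71.8 times higher in them, and *Fur1*, a furin-type protease, was 11.1 times higher. In the mean over the high cells of *AstC*, several transcripts of the circadian clock were raised. *Clk* was at 58.3 times, *vri* at 34.96 times, *tim* at 11.4 times, *cry* at 11.2 times and *per* at 4.37 times the level of other neuron-like cells. The remaining clock marker, *Pdp1*, is not given here. *tim* had a UMI in 22.3% of *AstC* high cells against 1.92% of the others, so most *AstC* high cells had none. *Dh31* high cells had *Clk* at 7.37 times and *cry* at 4.82 times, detected in only 1.41% and 5.45% of them, and the other clock markers are not given for them here.

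*dimm*, the transcription factor that switches on the peptide secretory pathway, was 58.5 times higher in *Ms* high cells, 51.6 times in *AstA*, 34.1 times in *AstC*, 11.6 times in *Proc* and 11.5 times in *Nplp1* high cells. Over all kept cells of a library *dimm* was only 0.324 to 2.35 CPM, so these ratios rest on small counts. Its ratios for the high cells of other peptides are not given here. *IA-2*, a membrane protein of dense core vesicles, was 5.00 times higher in *AstA* high cells. Among transmitter markers, *Gad1*, which makes GABA, was 8.43 times higher in *Proc* high cells and 4.95 times in *Nplp1* high cells, and the latter also had the vesicular glutamate transporter *VGlut* at 3.08 times. *Gad1* and *VGlut* were at 0.120 and 0.0684 times in *spab* high cells, while the acetylcholine transporter *VAChT* was at 1.51 times. *sNPF* high cells had *ey* at 6.31 times and *Dop1R2* at 5.06 times, genes of mushroom body neurons. *spab* high cells had *jeb*, a secreted ligand, at 5.99 times, and *Tk* high cells had the matrix metalloprotease *Mmp2* at 3.54 times.

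Most cells high for a peptide were high for only 1. Of the 25189 cells, 3555 (14.1%) were high for at least 1 of the 33 genes, and 332 of these (9.34%) for at least 2, with 7.08% to 11.7% across the 6 libraries. The share was 6.84% without the 5% of cells with the most UMIs, which are the cells most likely to hold more than 1 cell. Of 19 cells high for *FMRFa*, 13 were also high for *spab* (68.4%, exact 95% interval 43.4 to 87.4%), against 0.945% of all cells. These 13 cells came from 5 libraries. Of the 19 *FMRFa* high cells, 16 lay in cluster 2, where 5.57% of the cells were high for *spab*. Intervals here and in the next paragraph give counting error only, since the library is the replicate. *NPF* was paired with *Dh31* in 9 of 18 cells (50%, 26.02 to 73.98%) from 5 libraries, against 2.26% of all cells, and *Capa* with *Ms* in 5 of 9 cells from 2 libraries. *Dh31* was more frequent among cells high for any peptide, as given below. The cells high for both *NPF* and *Dh31* included the 1 with 38715 UMIs, which was also high for *spab* and *Gpb5*. Values without the 5% of cells with the most UMIs are not given for *FMRFa* with *spab*, *NPF* with *Dh31* or *Capa* with *Ms*. *SIFa* was paired with *Dh31* in 3 of 5 cells (60%, 14.7 to 94.7%) from 2 libraries, and in 1 of 2 without the 5% of cells with the most UMIs.

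*CCHa1* and *CCHa2*, which encode CCHamide peptides, both shared cells with *sNPF*, in 14 of 28 and 24 of 55 cells, although *sNPF* was also high in 50.5% of all cells that were high for any peptide. *CCHa2* and *AstC* met in 20 cells from 5 libraries, 36.4% of *CCHa2* high cells and 21.3% of *AstC* high cells. The value without the 5% of cells with the most UMIs is not given for this pair. *AstC* high cells were high for *sNPF* in 25.5% of cases. *Pdf* was joined by *Dh31* in 3 of its 7 cells (exact 95% interval 9.90 to 81.6%), but in 0 of 2 without the 5% of cells with the most UMIs, and *Dh31* was high in 16.01% of all cells high for any peptide. *Proc* and *Nplp1* shared 16 of 70 *Proc* cells, but only 2 of 29 once the 5% of cells with the most UMIs were left out, so that pairing lay almost wholly in the largest cells. *Crz* was the other extreme, with no more than 2.90% of its 69 cells high for any other peptide in the plotted set.

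**Figure D4:**
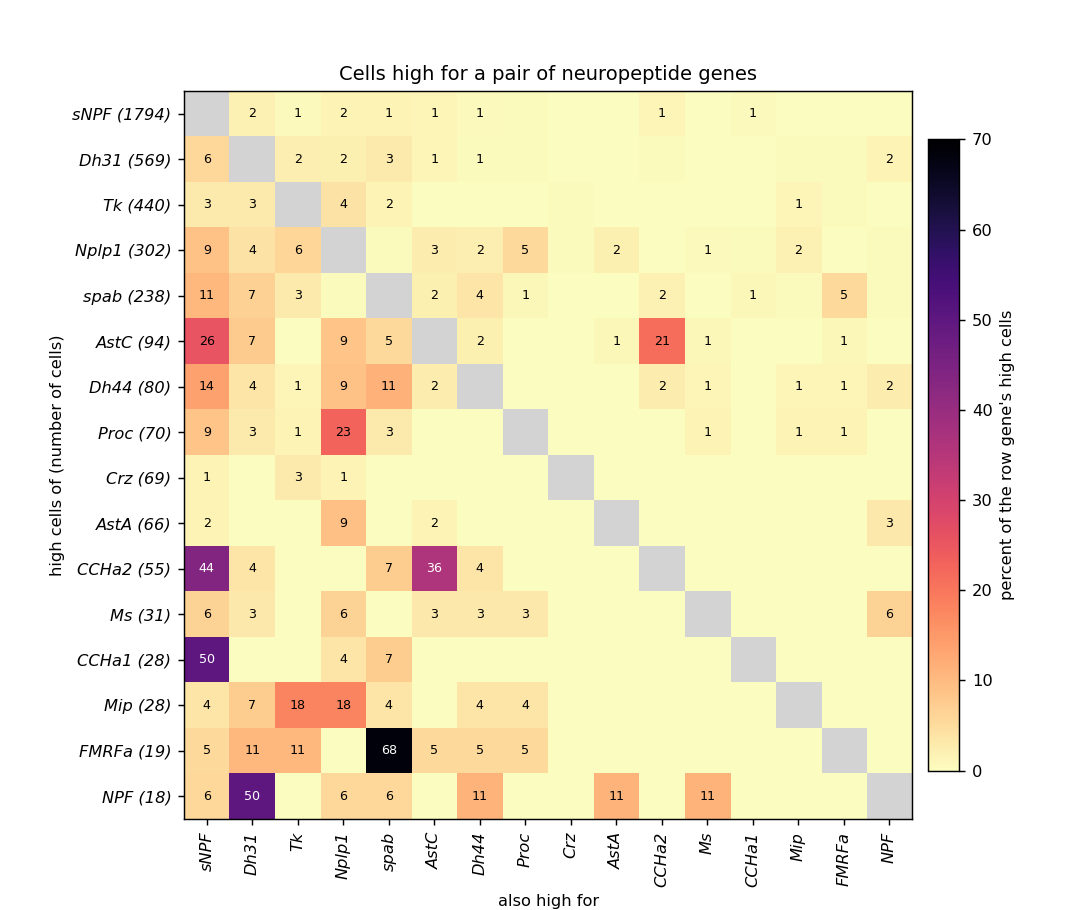
Percent of the high cells of the gene in each row (number of cells in brackets) that were also high for the gene in each column, for the genes with at least 18 high cells. The darkest cells are *FMRFa* with *spab* (68%), *NPF* with *Dh31* (50%) and *CCHa1* with *sNPF* (50%).

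The effect of losing *Appl* was first tested on the counts summed over all kept cells, where fewer cells that carry a peptide and less RNA per cell cannot be told apart. With edgeR's quasi-likelihood test and Benjamini-Hochberg adjustment over 8511 genes, 5.96% of all genes were called at an adjusted p under 0.05 and past a minimum fold change, and 3.02% of all genes were called as higher in *Appl*-. Of the 33 neuropeptide genes, 24 had enough counts to be tested and 0 were called, while 5 had an unadjusted p under 0.05, against 21.3% of all genes. DESeq2 called 2 of the 24, *Dh31* (adjusted p = 0.00579) and *spab* (adjusted p = 0.0036), where it called 10.1% of all genes and 4.28% as higher. With the replicate number as a block, edgeR called 3, which were *spab* (log2 fold change 0.91, adjusted p = 0.00676), *Gpb5* (0.33, adjusted p = 0.0288) and *amn* (0.62, adjusted p = 0.0449), where it called 10.8% of all genes and 4.84% as higher. *Dh31* was also called under a mitochondrial limit of 20% (together with *Gpb5*, against 5.88% of all genes and 3.03% as higher), without the 5% of cells with the most UMIs (5.38% and 2.76%) and with each cell capped at 10 UMIs, a setting chosen after seeing the data (6.58% and 3.25%). The median log2 fold change of the 24 genes was 0.19, with 16 above and 8 below 0, and that of all genes tested was -0.0034. The other 9 genes, *Pdf*, *Ilp3*, *Ilp5*, *Lk*, *CCAP*, *Dsk*, *Trissin*, *CNMa* and *RYa*, did not pass the filter on low counts.

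The 5 genes with an unadjusted p under 0.05 were all higher in *Appl*-, and in each of them the lowest *Appl*- library exceeded the highest control, a pattern shown by 14.0% of all genes tested in this direction, by 12.8% in the other and by 26.8% in either. *spab* had 152, 119 and 99.8 CPM in control 1, 2 and 3 and 335, 207 and 171 CPM in *Appl*- 1, 2 and 3 (here and below in CPM after TMM normalization). Its log2 fold change was 0.94 (SE 0.27, edgeR adjusted p = 0.0926), and it was 0.61 without *Appl*- 1, its highest library. *Dh31* had 238, 159.9 and 177 CPM in the controls and 287, 351 and 259.6 CPM in *Appl*- (log2 fold change 0.64, SE 0.18, edgeR adjusted p = 0.0863). Without control 1 it was called, with a log2 fold change of 0.83 (edgeR adjusted p = 0.0167), as were *Gpb5* and *FMRFa*, where 7.02% of all genes were called and 3.63% as higher. *FMRFa* was 23.5, 4.21 and 4.21 CPM in the controls and 14.9, 7.96 and 10.3 CPM in *Appl*-. Its highest library was thus the control left out, and with all libraries its log2 fold change was 0.03 (edgeR adjusted p = 0.988).

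*amn* was 8.71, 13.3 and 11.8 CPM in the controls and 16.7, 19.5 and 15.3 CPM in *Appl*- (log2 fold change 0.61, edgeR adjusted p = 0.101). *Dh44* was 38.8, 33 and 36.9 CPM against 41.2, 45.7 and 56.1 CPM (0.39, edgeR adjusted p = 0.143). *Gpb5* was 50.9, 40.9 and 42.0 CPM against 61.5, 53.3 and 53.2 CPM (0.33, edgeR adjusted p = 0.155). None of these differences passed the adjusted threshold.

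Cluster 2, where *spab* and *Dh44* cells were most frequent, held 10.2%, 7.74% and 8.52% of the cells in the controls and 12.8%, 11.1% and 11.1% in *Appl*-, without overlap. Its leading stress genes *Hsp23* and *Hsp27* were 366 to 1255 CPM and 428 to 930 CPM in the controls and 823 to 1185 CPM and 787 to 921 CPM in *Appl*-, with overlap and not past the threshold. The part of either in the differences of *spab* and *Dh44* over all cells was not tested.

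The other 19 tested genes overlapped between genotypes, with edgeR adjusted p between 0.293 and 0.996. *sNPF* was 619, 861 and 681 CPM in the controls and 617, 669.6 and 672 CPM in *Appl*-. *Nplp1* was 229, 212 and 190.4 CPM against 209.6, 197 and 204 CPM, with a log2 fold change of -0.05 (SE 0.09). *Tk* was 249.5, 191 and 275 CPM against 189.6, 179 and 234 CPM, and *Proc* was 67.0, 59.1 and 78.2 CPM against 58.9, 66.5 and 50.5 CPM. *AstA* was 324, 29.2 and 307 CPM against 157, 82.3 and 22.9 CPM, and *Ms* 307, 6.71 and 24.0 CPM against 250.3, 85.9 and 7.84 CPM. In both genes, libraries of 1 genotype lay further apart than the genotype means. *AstC* was 60.0, 34.7 and 29.0 CPM against 35.2, 70.9 and 32.8 CPM. *Crz* was 29.2, 39.1 and 11.1 CPM against 21.8, 42.1 and 18.7 CPM, and *CCHa2* was 35.3, 14.4 and 13.2 CPM against 23.4, 32.1 and 17.1 CPM.

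To separate the number of cells that carry a peptide strongly from the level in each of them, both were compared for genes with at least 30 high cells. *Dh31* high cells were more frequent in *Appl*-, at 198, 195 and 168 per 10000 cells in the controls and 274, 268 and 231 per 10000 in *Appl*- (mean 187 ± 16.3 and 258 ± 22.9, SD, n = 3, ratio 1.38). It was the only 1 of 12 neuropeptide genes whose share did not overlap between genotypes, where 11.8% of 1056 genes of all kinds did so in either direction and 4.36% were higher. An exact two-sided permutation test gave p = 0.1, the smallest value that 3 against 3 libraries allow. The mean level over the *Dh31* high cells of a library also did not overlap, at 5874, 5845 and 5802 CPM in the controls and 6882, 6661 and 6863 CPM in *Appl*- (ratio 1.16, exact permutation p = 0.1). With each cell thinned to 1000 UMIs and a limit of 4, which left out 25 to 356 cells per library, the share of *Dh31* high cells was 154, 173 and 147 per 10000 against 206, 256 and 249.6 per 10000, still without overlap. The level in them overlapped after thinning, at 7706, 6574 and 7125 CPM against 8863, 7513 and 7458 CPM, and also with a limit of 20 UMIs in place of 10.

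The level in high cells also did not overlap for *CCHa2*, at 4347, 5741 and 3966 CPM in the controls and 7259, 5806 and 6420 CPM in *Appl*- (exact permutation p = 0.1), so with *Dh31* 2 of 11 genes with at least 3 high cells in every library did so, against 14.2% of 862 genes in either direction and 4.64% higher. No neuropeptide gene separated in the other direction in these counts, but some did under other limits and filters, given below. *spab* high cells were 94.5, 62.1 and 51.3 per 10000 in the controls and 186, 99.1 and 69.8 per 10000 in *Appl*-, with overlap. *Tk* high cells were 187, 222 and 232 per 10000 against 145, 116 and 187 per 10000, where the highest *Appl*- library just exceeded the lowest control. For *sNPF* the shares were 776, 724 and 701 per 10000 against 707, 686 and 685 per 10000, and for *Nplp1* 133, 157 and 117 against 129, 102 and 91.9 per 10000. *AstC* high cells were 38.3, 35.5 and 26.9 per 10000 against 43.8, 43.3 and 31.7 per 10000, so that 2 *Appl*- libraries exceeded every control. After thinning, the shares of *AstC* (27.2, 25.6 and 23.7 against 28.2, 40.95 and 27.7 per 10000) and *CCHa2* (15.8, 12.8 and 10.5 against 19.7, 26.2 and 17.3 per 10000) did not overlap (exact permutation p = 0.1 for each), while without it the share of *CCHa2* overlapped with a ratio of 1.08. Together with *Dh31*, *AstC* and *CCHa2* made up 3 of 10 genes after thinning, where 61 of 827 genes of all kinds were higher and 62 lower without overlap. *Ms*, *AstA*, *Dh44*, *Crz* and *Proc* overlapped both with and without thinning.

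Within clusters, some genes were called that were not called in the sum over all cells. There were 28 clusters with at least 20 cells in every library, and 20 of the neuropeptide genes could be tested in at least 1 of them, in 148 combinations of gene and cluster. edgeR called 8 of these (6 higher and 2 lower in *Appl*-), against 2.04% of all gene and cluster combinations (1.11% higher and 0.926% lower), with p-values adjusted over the genes of each cluster. The 8 calls were of *Dh31*, *spab*, *Tk* and *sNPF*. With the replicate number as a block there were 26 (15 higher and 11 lower), against 4.06%, and all 8 were among them. The block also called genes that were not called without it. *sNPF* was higher in cluster 3 (log2 fold change 0.83, edgeR adjusted p = 0.00106), cluster 6 (0.80, adjusted p = 0.00307) and cluster 11 (0.38, adjusted p = 0.0418) and lower in clusters 5 (-0.71) and 17 (-1.44). *Tk* was lower in cluster 5 (-0.74, edgeR adjusted p = 0.000868) and higher in clusters 12 (0.70) and 25 (0.71). *spab* was higher in cluster 0 (0.66) and *Dh31* in cluster 1 (0.59), *Gpb5* in cluster 5 (1.59) and *Dh44* in cluster 6 (1.36). *Nplp1* was lower in clusters 0 (-0.70) and 15 (-1.01), *Proc* in clusters 3 (-0.65) and 6 (-0.68), *CCHa1* in cluster 2 (-2.50) and *AstC* in cluster 3 (-2.09).

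*Dh31* rose in cluster 0, a neuron-like cluster of 2739 cells with *ham*, *ap* and *disco* among its leading genes. It had 127, 89.4 and 65.4 CPM in control 1, 2 and 3 and 494, 344 and 396 CPM in *Appl*- 1, 2 and 3, a 4.40-fold difference (log2 fold change 2.14, SE 0.22, edgeR adjusted p = 6.18e-05, where 2.51% of the genes tested in the cluster were called). Cells with at least 1 *Dh31* UMI made up 3.39% to 7.66% of the cluster in the controls and 10.7% to 16.2% in *Appl*-, at a median depth of 2354 UMIs per cell. In cells that were not neuron-like, with a median of 2565 UMIs, the share was 2.31% to 5.42% in the controls and 5.13% to 12.1% in *Appl*-, and in each of the 6 libraries it was below the share in cluster 0. High cells of *Dh31* numbered 5, 3 and 3 in the controls and 19, 21 and 12 in *Appl*-, and no single cell held more than 21.5% of the cluster's *Dh31* in any library. The call held without each library in turn (log2 fold change 1.91 to 2.42).

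*Dh31* also rose in cluster 6, but from a lower level, with 21.8, 25.4 and 2.94 CPM in the controls and 78.8, 49.8 and 85.2 CPM in *Appl*- (log2 fold change 2.04, SE 0.40, edgeR adjusted p = 0.00834, 1.75% of genes called). Here the counts were small, with 2 to 18 UMIs per control library and 33 to 44 per *Appl*- library. The call held without each library in turn, with a highest edgeR adjusted p of 0.0449. *Dh31* in cells that were not neuron-like was 65.2, 6.79 and 27.0 CPM in the controls and 64.6, 46.0 and 293 CPM in *Appl*-. These cells included 3 high cells of *Dh31*, without which their level over all libraries was 23.5 CPM. How far the count in cluster 6 came from free RNA was not tested.

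*sNPF* fell in cluster 12, a neuron-like cluster of 533 cells led by *Grd*, *Dll* and *Muc14A*. It had 854, 1086 and 1487 CPM in the controls and 226, 279 and 343 CPM in *Appl*-, a 4.05-fold difference (log2 fold change -2.02, SE 0.22, edgeR adjusted p = 1.69e-05, 0.703% of genes called). The share of cells with an *sNPF* UMI was 42.5%, 35.8% and 40.4% in the controls and 23.9%, 13.2% and 15.3% in *Appl*-, where cells that were not neuron-like had 2.56% to 17.5%. Control 2 and control 3 had 7 and 12 high cells in this cluster and control 1 had 0, against 0, 2 and 0 in *Appl*-. The median cell of the cluster was deeper in the controls (1753 to 2189 UMIs) than in *Appl*- (1545 to 1580 UMIs), and its part in the shares was not tested. The call held without each library in turn (log2 fold change -2.15 to -1.80).

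*Tk* changed in opposite directions in a pair of clusters. In cluster 8, led by *ort*, *DIP-zeta* and *DIP-epsilon*, it fell from 176, 145 and 290.3 CPM to 136, 69.3 and 62.4 CPM (log2 fold change -1.20, SE 0.28, edgeR adjusted p = 0.0249, 2.64% of genes called). In cluster 17, with *vvl* and *pyd* among its leading genes, it rose from 116, 173 and 54.9 CPM to 301, 294 and 337 CPM (1.44, SE 0.33, edgeR adjusted p = 0.0372, 1.33% of genes called). Neither call held without each library in turn. The fall in cluster 8 was lost without control 3, *Appl*- 2 or *Appl*- 3, and the rise in cluster 17 without control 3 or any 1 of the *Appl*- libraries, with edgeR adjusted p up to 0.287 and 0.258. The log2 fold change kept its direction without each library, at -1.61 to -0.84 in cluster 8 and 1.01 to 1.99 in cluster 17.

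*spab* rose in 3 clusters. In cluster 2, of which it is a leading gene, it was 363, 314 and 302 CPM in the controls and 811, 512 and 451 CPM in *Appl*- (log2 fold change 0.86, SE 0.20, edgeR adjusted p = 0.0457, 2.83% of genes called), but 39.3% of its UMIs in *Appl*- 3 came from 1 cell. In cluster 8 it was 215, 180.4 and 86.3 CPM against 375, 344 and 239.8 CPM (1.05, SE 0.26, edgeR adjusted p = 0.0317), and in cluster 17 it was 116, 57.5 and 54.9 CPM against 235, 219 and 191 CPM (1.66, SE 0.34, edgeR adjusted p = 0.0177). In each of the 3 clusters the call was lost without control 2, control 3, *Appl*- 1 or *Appl*- 2, and in cluster 17 also without *Appl*- 3, with edgeR adjusted p up to 0.209, 0.268 and 0.159. The log2 fold change stayed above 0 without each library, at 0.57 to 1.01, 0.71 to 1.32 and 1.43 to 1.97 in clusters 2, 8 and 17. Over the 16 clusters where *spab* was tested, its fold change was above 0 in 15. In cells that were not neuron-like, *spab* was 30.6 to 57.4 CPM in the controls and 119 to 131 CPM in *Appl*-, without overlap, and 3 of these cells were high for it.

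**Figure D5:**
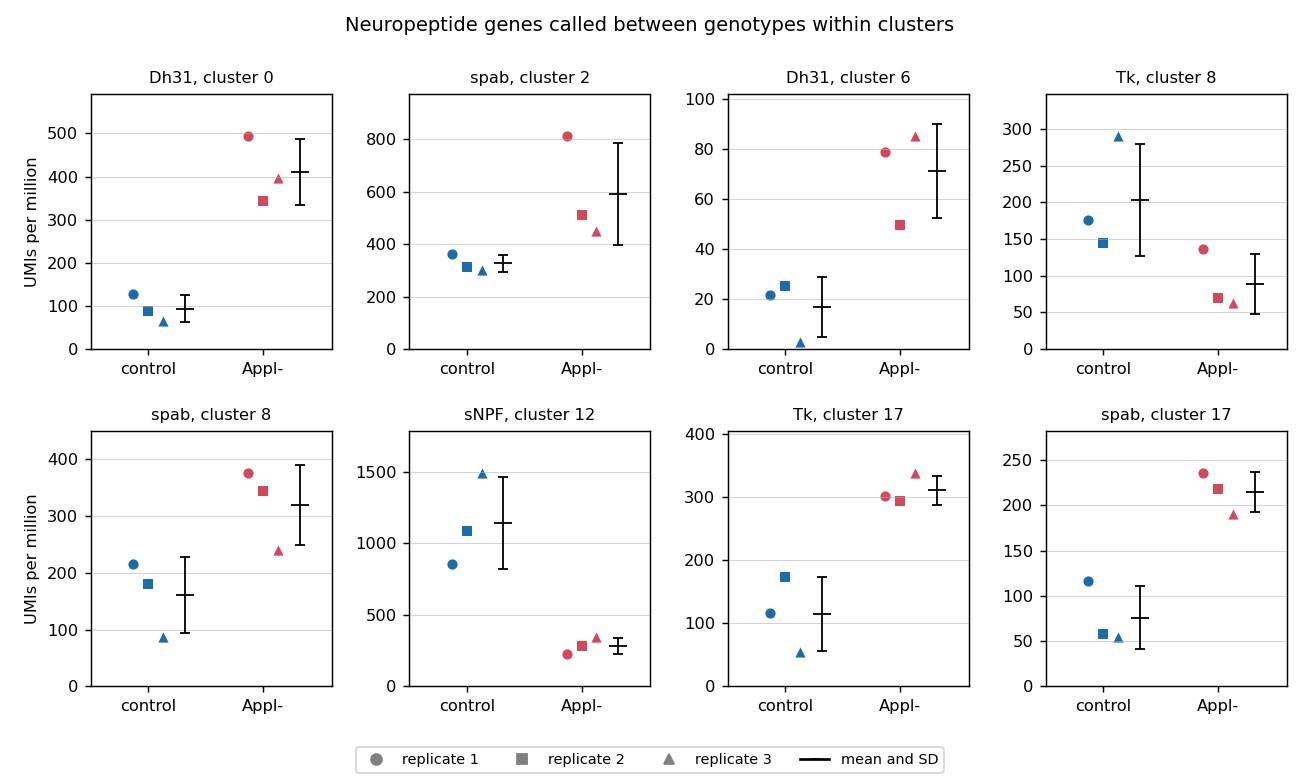
CPM in each library for the 8 combinations of neuropeptide gene and cluster called between genotypes (vertical axes start at 0 and differ between panels), with the mean and SD of 3 libraries. Controls and *Appl*- libraries do not overlap in any panel, and the largest separations are *Dh31* in cluster 0 and *sNPF* in cluster 12.

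Whether these effects differed from those in the remaining neuron-like cells was tested in 1 model per cluster, chosen after the calls were seen. *Dh31* changed more in cluster 0 than in the other neuron-like cells (difference in log2 fold change 1.66, SE 0.19, edgeR adjusted p = 0.000131, where 0.43% of genes were called). *sNPF* fell more in cluster 12 (-1.84, SE 0.20, edgeR adjusted p = 1.37e-05, 0.659% of genes called), and *Tk* rose more in cluster 17 (1.80, SE 0.33, edgeR adjusted p = 0.00283, 0.543% of genes called). The effects on *Tk* in cluster 8 and cluster 17 differed from each other by -2.65 (SE 0.43, edgeR adjusted p = 0.000344, 0.842% of genes called). For *Tk* in cluster 8 against other neuron-like cells, *Dh31* in cluster 6 and *spab* in clusters 2, 8 and 17, the difference did not pass the threshold, with edgeR adjusted p between 0.133 and 0.812, where 0.024%, 0.0426%, 0.152% and, as above, 0.543% of genes were called in clusters 8, 6, 2 and 17.

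The genes that cut, amidate and package peptides were taken from a separate list. Of 11 such genes, all tested over all cells, 0 were called by edgeR and 1 had an unadjusted p under 0.05, with 0 called also by DESeq2. This was *svr*, a carboxypeptidase that trims cut peptides, at 353, 340.3 and 329 CPM in the controls and 454, 381 and 375 CPM in *Appl*- (log2 fold change 0.24, SE 0.10, edgeR adjusted p = 0.227). The convertase *amon* was 410 to 466 CPM against 415 to 474 CPM, its helper *7B2* 874 to 1122 CPM against 952 to 1298 CPM, and the amidating enzyme *Phm* 98.96 to 127 CPM against 85.7 to 129 CPM. *Pal1*, *Pal2*, *Fur1*, *Fur2*, *Cadps*, *IA-2* and *dimm* had log2 fold changes between -0.55 and 0.17. The median over the list was 0.04, against -0.0034 for all genes tested.

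A further list held 17 peptide hormone genes outside the 33, of which 16 were analysed here and 5 (*Akh*, *Ilp6*, *Ilp7*, *Nplp2* and *Nplp3*) had enough counts to be tested. edgeR called *Nplp2*, at 127, 17.5 and 33.3 CPM in the controls and 5.03, 5.85 and 1.61 CPM in *Appl*- (log2 fold change -3.77, SE 0.82, edgeR adjusted p = 0.0446). The call was lost in neuron-like clusters alone (edgeR adjusted p = 0.0592) and without any 1 of the *Appl*- libraries. The cluster with hemocyte and fat body markers held 88, 14 and 55 cells in the controls and 2, 5 and 2 cells in *Appl*-, and its part in this fall was not tested. *Ilp6* was 5.38, 2.99 and 1.17 CPM against 0.975, 1.28 and 0.859 CPM, which overlapped. The median over the 5 genes was -0.10.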

How the data were processed

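Single-cell counts came from 6 libraries, 3 per genotype by the labels. The authors ran Cell Ranger 6.0.0 and deposited raw counts of UMIs per barcode over 22064 features, 16493 of them genes and 5571 transposable elements. Genome build and strand setting are not given in the sources used here. The members and gene lists were chosen with earlier results of these data known.

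A barcode was kept as a cell when it had 200 or more genes and no more than 10% of its UMIs were mitochondrial. No doublet caller was run, and leaving out the 5% of cells with the most UMIs was tried instead. Clustering (scanpy 1.11.5, leidenalg 0.10.2) used 2000 variable genes scaled within each library, without neuropeptide, ribosomal, mitochondrial and sex-biased genes, 30 components, 20 neighbours and Leiden resolution 1. A cluster was named by at least 3 markers of its type raised at least 2-fold.

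UMIs were summed per library over all kept cells and within each cluster that had 20 or more cells per library, filtered by filterByExpr and TMM-normalized. edgeR 4.0.16 (R 4.3.3) gave quasi-likelihood p-values, adjusted by Benjamini-Hochberg (called at adjusted p under 0.05, at least 1.25-fold). Alternatives were DESeq2 1.42.0, other normalizations, filters and cell limits, thinning, a replicate block and leaving out each library. Capping each cell at 10 UMIs was chosen after seeing the data. Same-numbered libraries deviated together (correlations 0.25, 0.21 and 0.33, against at most 0.02 otherwise), so the numbers may pair the samples, although what they share is not stated. The main tests, the permutation tests and the overlap counts did not use this pairing, and the replicate block did.

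Any 2 libraries shared at most 16 kept barcodes. Libraries of a genotype differed by at least 11.0 times the sampling noise, so none was counted as a duplicate. Tested on simulated data with 200 genes changed by at least 2-fold, the test recovered 70% over all cells (8511 genes) and 85% in cluster 0 (5812 genes). It recovered 79% in cluster 12 (2276 genes) and 88% for the difference of effects (5811 genes), and 2.78% to 5.56% of its calls were false. Of the 2-fold changes over all cells, 63.8% were recovered. Smaller changes, which include those of the 5 neuropeptide genes with an unadjusted p under 0.05, were not simulated.

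All genes of the list were accounted for. Values per library were given for genes called in the main tests, the 8 with the most UMIs and those with at least 30 high cells. Not every gene called only under an alternative has them. Genes of high cells were taken from the 5 largest ratios, fixed transmitter and clock markers and the processing list.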

Additional observations from a re-analysis of the deposited data

Results flagged for a closer look

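In 4 cases the genotype effect on a neuropeptide gene differed between cell groups by a test of the difference itself. These contrasts were chosen after the calls in the same cells were seen, so they are no independent check of those calls. *Dh31* rose more in cluster 0 than in other neuron-like cells (difference in log2 fold change 1.66), and *sNPF* fell more in cluster 12 (-1.84). *Tk* rose more in cluster 17 (1.80) and moved apart between cluster 8 and cluster 17 (-2.65). The calls of *Tk* within clusters 8 and 17 did not hold without each library in turn.

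Barcodes left out by the limits on genes and mitochondrial UMIs also held peptide signal. Among 41634 left-out barcodes with at least 200 genes, 5 were high for *Hug* (4 in control 1 and 1 in *Appl*- 2, at up to 328 UMIs), although 0 kept cells were. For *RYa*, 1 barcode of control 3 was high, with 11 UMIs, and again 0 kept cells were.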

How the results depend on the processing

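Over all cells, 0 neuropeptide genes were called, but DESeq2 called 2, the replicate block (pairing same-numbered libraries) 3, the 20% mitochondrial limit 2, leaving out the 5% of cells with the most UMIs 1 and capping each cell at 10 UMIs 1. Leaving out 1 library gave 0 to 3, with 3 without control 1 (*Dh31*, *FMRFa* and *Gpb5*). The log2 fold change of *sNPF* (-0.14) turned to 0.036 without the 5% of cells with the most UMIs and to 0.016 with the cap, and that of *Nplp1* (-0.05) was -0.12 to 0.019 without 1 library, above 0 without control 1. The cause was not tested. No processing gene was called without any 1 library. The 1 call among other peptide genes became 0 with at least 500 genes per cell, the 20% limit or neuron-like clusters alone, and 0 to 2 without 1 library (0 without any 1 *Appl*- library, 2 without control 3).

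Within clusters, 8 calls in 148 combinations (against 2.04% of all gene and cluster combinations) became 26 with the replicate block (against 4.06%). They became 5 with at least 50 cells per library, where clusters 12 and 17 were not tested and the numbers called in the remaining clusters did not change. With no filter on low counts there were 79. Leaving out 1 library gave 5 to 15 (15 without control 1, 5 without *Appl*- 2). The numbers tested changed too. Without the filter, cluster 2 had 33 neuropeptide genes and 12090 genes in all tested, in place of 20 and 6580. There, 7 neuropeptide genes were called higher and 9 lower, against 226 and 300 of all genes. In cluster 4, 0 of 30 neuropeptide genes were called, against 108 higher and 114 lower of 9734 genes. Shares over all genes and clusters together are not given for these settings, so the counts alone do not set neuropeptide genes apart. The block changed no other call of a gene named over all cells. The number of genes whose share of high cells did not overlap was 1 of 12 (46 higher and 79 lower of 1056 genes of all kinds). With a limit of 5 UMIs it was 2 of 15, *Dh31* higher and *Tk* lower (83 and 203 of 2249). With 20 UMIs it was 2 of 10, *Dh31* higher and *Proc* lower (17 and 40 of 471). At least 500 genes gave 2 of 12, *Dh31* higher and *sNPF* lower (47 and 77 of 1050). The 20% limit gave 2 of 14, *Dh31* and *spab*, both higher (102 and 51 of 1131). Without the 5% of cells with the most UMIs it was 2 of 10, *Dh31* higher and *Tk* lower (29 and 74 of 684). After thinning it was 3 of 10, all higher (61 and 62 of 827). Leaving out 1 library gave 1 to 4, with 4 of 11 without *Appl*- 3 (99 and 81 of 1015). Those 4 were *AstC*, *Dh31* and *spab* higher and *Tk* lower. For the level in high cells it was 2 of 11, both higher (40 higher and 82 lower of 862 genes). With 5 UMIs it was 4 of 11, *Dh31* and *spab* higher and *Crz* and *Proc* lower (68 and 150 of 1958). With 20 UMIs it was 0 of 8 (24 and 32 of 385). After thinning it was 0 of 9 (42 and 74 of 722). With the 20% limit it was 4 of 12, *CCHa2* and *Dh31* higher and *Crz* and *Proc* lower (48 and 114 of 897). Leaving out 1 library gave 2 to 5, with 5 of 11 without control 2 (57 and 180 of 869). Those 5 were *CCHa2*, *Dh31* and *spab* higher and *AstA* and *Crz* lower. The share of high cells that were high for at least 2 genes was 14.8% with 5 UMIs, 6.84% without the 5% of cells with the most UMIs and 8.59% to 9.67% without 1 library. The count of genes higher in neuron-like cells was 19 to 23 without 1 library. Precision was limited by 3 libraries per genotype and by genes carried by 1 or 2 cells.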

Other observations

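Several neuropeptide genes had high barcodes among those over the mitochondrial limit that were more numerous or stronger than among the kept cells. *ITP* had 8 high barcodes there, from 5 libraries and at up to 743 UMIs, against 2 kept cells at up to 21 UMIs. *Dh44* reached 517 UMIs there against 63 in kept cells, *FMRFa* 279 against 94 and *Proc* 354 against 148. *Ilp2* had 7 high barcodes there, at up to 111 UMIs, against 1 kept cell with 491 UMIs. *Crz* had fewer there, 48 against 69, but at up to 184 UMIs against 137. *sNPF* was neither more numerous nor stronger there, with 400 high barcodes at up to 58 UMIs against 1794 kept cells at up to 2442 UMIs. Barcodes over the limit with at least 200 genes numbered 41634, against 25189 kept cells. These barcodes entered no comparison except under the 20% mitochondrial limit.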
